A study of Mus musculus with 2 samples.

Results

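The 40 genes described here are the transcription factor Myc with its network partners, and genes that build the ribosome. They were taken from a list of gene symbols, and each was found on the array through the platform annotation, so that 40 of the 18193 genes named on the array, represented by 90 probe sets, form the group. The study compared KLS cells, a bone marrow fraction of mice sorted as negative for lineage markers and positive for c-kit and Sca, between wild type mice and mice in which the TIF1γ gene (Trim33) had been conditionally inactivated, here called TIF1γ Δ/Δ. Each genotype was measured on 1 Affymetrix array from total RNA, amplified in 2 cycles before labelling. The sources used here do not give strain, age, sex, any agent used for the inactivation, the Cre line or any pooling of animals. With 1 array per genotype no difference has a replicate check, no p-value or standard deviation between mice can be given, and every value below describes these 2 arrays.

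Myc binds DNA as a dimer with Max, at E-boxes with the letters CACGTG, and is known for raising the transcription of genes that make ribosomes. Proteins of the Mxd, Mnt and Mga group compete with Myc for Max and act mostly as repressors. RNA polymerase I transcribes the ribosomal RNA precursor, small nucleolar ribonucleoproteins (snoRNPs) modify and guide the cutting of that precursor, and further nucleolar proteins process it and assemble the subunits. In blood, Myc is known for its part in the balance between stem cell self-renewal and differentiation, and stem cells are known for a low rate of protein synthesis.

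Values are MAS5 intensities on a linear scale, and differences are log2 of the TIF1γ Δ/Δ intensity minus log2 of the wild type intensity, less the median difference of -0.024 over all probe sets measured on both arrays. The floor for a measured probe set was the median signal of its array, 14.4 and 11.7. Throughout, the first of a pair of intensities is the wild type array and the second the TIF1γ Δ/Δ array. A gene was represented by its brightest probe set. Probe sets of 1 gene disagreed with a pooled SD of 0.45 (log2, over 4534 genes), which serves below as a yardstick of measurement scatter and holds no variation between mice.

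As a check of the labels, Trim33 gave 379 and 172 with its brightest probe set (log2 -1.12); this check is limited because the sources used here do not say which part of the gene was deleted. Markers of mature cells had less signal in the TIF1γ Δ/Δ sample, most of all those of neutrophils and macrophages, although the sort removes lineage-positive cells. All 18 neutrophil and macrophage markers on the array reached the floor on the wild type array and 9 did on the other, with summed intensities of 45323 and 4760. Mpo made up 5497 and 3840 of these sums. For 10 erythroid markers the sums were 6943 and 3070, of which Car2 made up 2879 and 2016. For 8 B lineage markers they were 737 and 218, of which Cd79b made up 182 and 128. For 9 T and NK cell markers they were 1641 and 1208, of which Nkg7 made up 1249 and 1090. Of the genes that mark KLS cells themselves, all 9 on the array were measured on both, with sums of 4690 and 6084. Kit gave 384 and 495, Cd34 1398 and 2326, and Flt3 464 and 534, whereas Procr gave 486 and 316 (log2 -0.60) and Hlf was at -0.005; Ly6a, which encodes Sca, was not analysed here. The ratio of 3' to 5' signal was 7.86 and 7.38 for Gapdh and 5.14 and 5.54 for actin.

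All 40 genes were measured on both arrays. Most lay slightly above 0: 34 of 40 had more signal in the TIF1γ Δ/Δ sample and 6 had less, whereas 53.1% of the 10365 genes measured on both arrays were above 0. Their median difference was 0.35, against a median of 0.044 for those 10365 genes, and the central range (quartiles) ran from 0.12 to 0.75, against -0.32 to 0.40. At least 2-fold, 3 of the 40 (7.5%) were higher, where 2.62% of those 10365 genes were, and none was lower, where 4.65% were. Over all 11724 genes with a difference, which include genes measured on 1 array only, these shares were 2.53% and 6.01%. By more than the probe set SD, 17 genes (42.5%) were higher and 1 (2.5%) was lower. The shares were 21.4% and 18.3% of the 10365 genes, and 20.1% and 20.8% of all 11724. More cells of a type and more RNA per cell cannot be told apart in these bulk samples, and the part that the lower mature cell markers play in these differences was not tested.

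**Figure D1:**
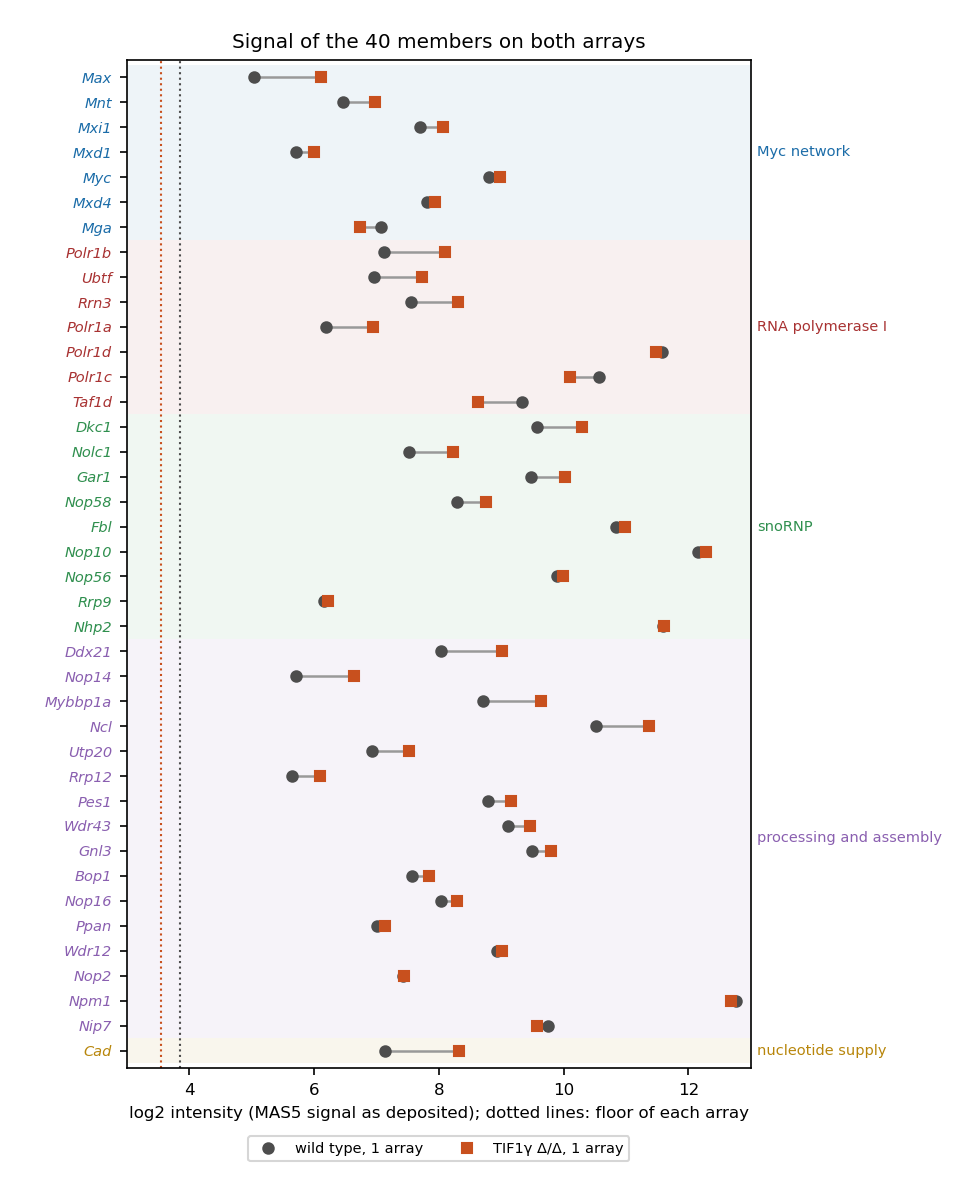
Intensity of each of the 40 genes on a log2 scale, with the wild type array as a circle and the TIF1γ Δ/Δ array as a square, and genes grouped by step. Dotted lines mark the floor of each array, and all 40 genes lie above both.

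The Myc network differed little at Myc itself and most at Max. Myc gave 448 and 505 (log2 0.20, 1.15-fold), a difference inside the probe set scatter. Max, the partner that Myc and its competitors all need, gave 32.9 and 69.5 (log2 1.10, 2.15-fold), from a single probe set. It was below 2-fold with the floor at the 65th percentile (log2 0.88) and with a pseudocount of 16 (log2 0.82). The 4 Max-binding repressors Mxd1, Mxd4, Mxi1 and Mnt were all above 0, with a median of 0.35. Of genes measured on both arrays, 53.1% were above 0.

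Among these repressors, Mnt had the highest value, with 88.8 and 126 (log2 0.53). Mxi1 gave 207 and 267 (log2 0.39), and Mxd1 gave 52.2 and 64.0 (log2 0.32). Mxd4 gave 226 and 245 (log2 0.15), although another of its probe sets gave 24.5 and 44.5 (log2 0.89). Only Mnt among the 4 lay outside the probe set SD. Mga, a large Max-binding protein of a repressive chromatin complex, went both ways: its brightest probe set gave 135 and 107 (log2 -0.31) and another gave 51.0 and 77.4 (log2 0.62), so that no direction can be read for it.

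The letters CACGTG stood in the promoter window (250 bases before to 50 after the start, RefSeq, GRCm38.p6) of 9 of the 35 genes that the promoter table holds, or 25.7%. Of all 32851 promoters 7.15% held them, and of 8475 genes measured on both arrays 12.0% had at least 1 promoter that did. The motif reads the same on both strands. The table had no entry for Myc, Fbl, Npm1, Bop1 and Rrp12. The stretches around the motif are shown for these 9 genes because the E-box is the letters that Myc and Max bind; each runs 5′ to 3′ along the gene's strand with the motif in capitals, and Rrn3 holds it at 2 places.
Max (chr12:76962234-76962263, minus strand): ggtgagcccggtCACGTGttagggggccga
Mnt (chr11:74830789-74830818, plus strand): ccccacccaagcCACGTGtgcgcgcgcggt
Mxd4 (chr5:34187912-34187941, minus strand): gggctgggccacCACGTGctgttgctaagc
Rrn3 (chr16:13780472-13780501, plus strand): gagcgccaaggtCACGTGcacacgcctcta
Rrn3 (chr16:13780639-13780668, plus strand): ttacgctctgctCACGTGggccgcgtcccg
Pes1 (chr11:3963965-3963994, plus strand): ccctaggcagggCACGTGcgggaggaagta
Utp20 (chr10:88826765-88826789, minus strand): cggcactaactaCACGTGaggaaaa
Wdr43 (chr17:71616220-71616249, plus strand): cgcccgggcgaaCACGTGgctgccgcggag
Nop2 (chr6:125131811-125131840, plus strand): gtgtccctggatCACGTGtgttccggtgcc
Mybbp1a (chr11:72441355-72441376, plus strand): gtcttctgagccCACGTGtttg

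In Max the motif began 3 bases before the start, in Nop2 60 and in Rrn3 48 and 215 bases before it. In Pes1, Wdr43, Utp20 and Mybbp1a it lay after the start. The median difference of the 9 genes with the motif was 0.53, and that of the other genes with an entry was 0.32. Over all genes measured on both arrays these medians were 0.094 and 0.049. The 9 genes ranged from 0.049 (Nop2) to 1.10 (Max), so genes with and without the motif overlapped widely. A match of letters is a description and not a binding site. The other common E-box, CACATG or CATGTG, was present in 8 of the 35 (22.9%), in 14.2% of all promoters and in 10.3% of measured genes, with medians of 0.27 with it and 0.39 without it among the 35.

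The whole windows of the 2 genes that were furthest above 0 are shown. Max holds the motif at its start, in capitals. The window of Cad holds no CACGTG, which says only that these letters are not in this stretch. It ends 50 bases after the start, and the bases beyond it were not searched.
Max (chr12:76962199-76962498, minus strand): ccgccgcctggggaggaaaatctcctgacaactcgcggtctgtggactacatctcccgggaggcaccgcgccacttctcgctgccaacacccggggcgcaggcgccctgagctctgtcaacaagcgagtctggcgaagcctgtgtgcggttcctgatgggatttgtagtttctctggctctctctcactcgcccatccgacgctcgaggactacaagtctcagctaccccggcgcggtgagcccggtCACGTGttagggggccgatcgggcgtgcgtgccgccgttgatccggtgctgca
Cad (chr5:31054530-31054829, plus strand): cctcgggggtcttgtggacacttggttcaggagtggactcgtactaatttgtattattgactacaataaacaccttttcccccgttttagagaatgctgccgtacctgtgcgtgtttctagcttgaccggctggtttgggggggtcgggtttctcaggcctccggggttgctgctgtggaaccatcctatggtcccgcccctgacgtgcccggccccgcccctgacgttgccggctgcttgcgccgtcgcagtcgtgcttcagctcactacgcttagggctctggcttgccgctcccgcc

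Genes of RNA polymerase I lay on both sides of 0. Polr1b, the second largest subunit, gave 139 and 274 (log2 1.01, 2.01-fold). It was at least 2-fold higher in 5 of 10 alternatives and below 2-fold under each other scaling, at 0.98 with none, 0.93 with quantile and 0.88 with loess scaling. Rrn3, the initiation factor that couples the polymerase to growth signals, gave 189 and 318 (log2 0.78). Ubtf, which binds ribosomal DNA, gave 124 and 213 (log2 0.80), with its other probe set at 0.39.

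On the lower side, Polr1c, which RNA polymerase III uses too, gave 1527 and 1103 (log2 -0.44), and its other probe set lay at -0.62. Polr1d, the partner of Polr1c in both polymerases, gave 3051 and 2849 (log2 -0.075), and its 4 probe sets ran from -0.36 to 0.003; under quantile scaling it stood at 0.035. Taf1d, a subunit of the promoter factor SL1, gave 647 and 395 (log2 -0.69), and all 5 of its probe sets measured on both arrays were lower, from -1.11 to -0.40. Taf1d was the 1 gene of the 40 that was lower by more than the probe set SD.

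For Polr1a, the largest subunit, the probe sets disagreed. The brightest gave 73.5 and 124 (log2 0.78), whereas another gave 29.5 and 19.6 (log2 -0.56). The median of the 7 genes was 0.78, but it turned to -0.36 when the second brightest probe set stood for each gene that had one. It was 0.055 with the mean of all measured probe sets, which was the value of Polr1a. That mean includes a Polr1a probe set (5.77 and 13.7) that counted as -0.051 because its wild type signal was raised to the floor. The 7 values therefore give no single direction for this step.

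**Figure D2:**
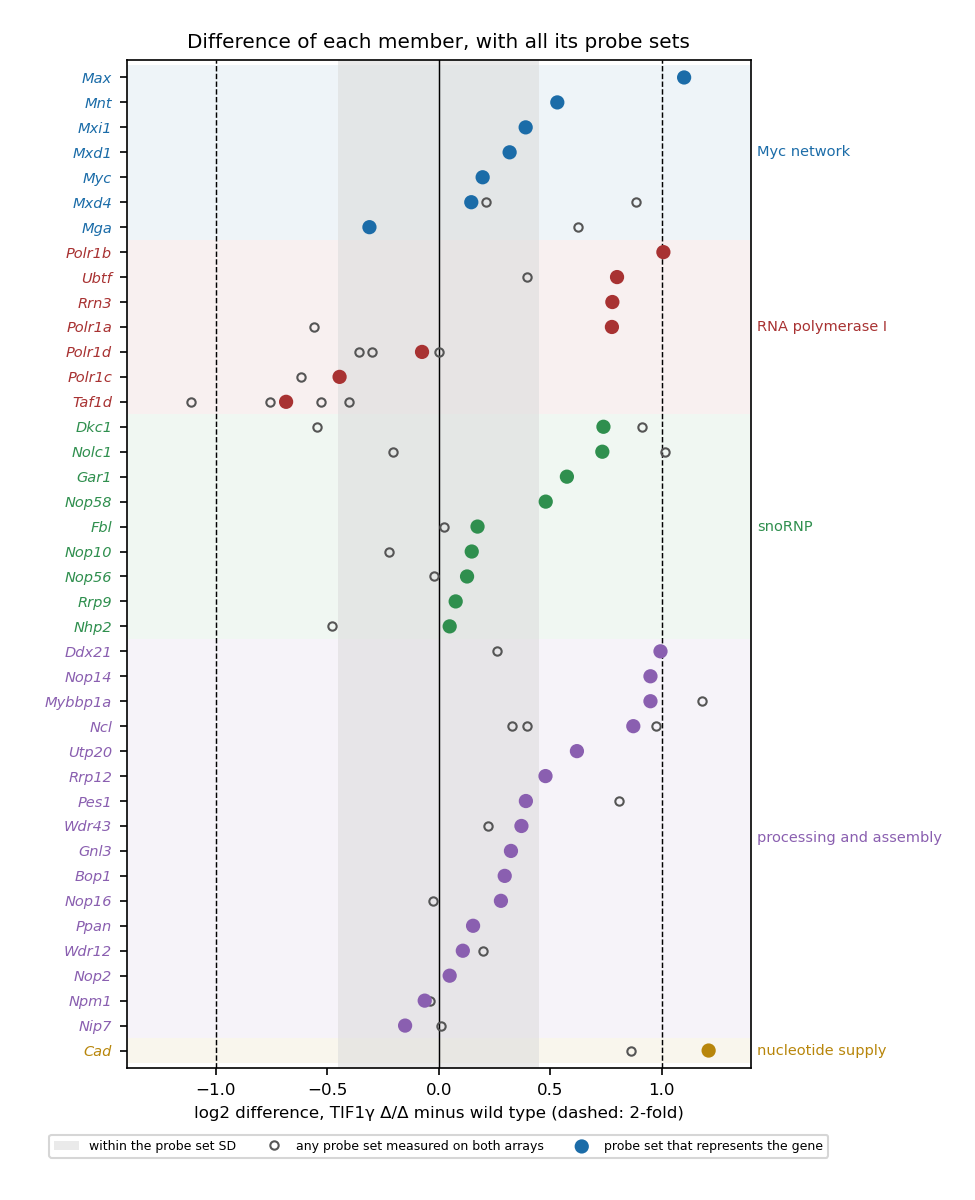
Log2 difference of each gene (filled point) with all its probe sets measured on both arrays (open circles), and the probe set SD of 0.45 in grey. Dashed lines mark 2-fold, which Max, Polr1b and Cad pass to the right and no gene passes to the left with the probe set that represents it.

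All 9 snoRNP genes were above 0, where 53.1% of genes measured on both arrays were. However, 5 of the 9 were above 0 by less than the probe set SD, and the median of the 9 was 0.17. Dkc1, the pseudouridine synthase of the H/ACA class, gave 762 and 1251 (log2 0.74), and its other probe sets were at 0.91 and -0.54. Gar1, which sits with Dkc1 in the same particle, gave 713 and 1045 (log2 0.58). Nolc1, a nucleolar chaperone of these particles, gave 184 and 300 (log2 0.73), with 1 of its 3 probe sets below 0.

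The remaining H/ACA core proteins were close to 0. Nhp2 gave 3079 and 3134 (log2 0.049), with its other probe set at -0.48. Nop10 gave 4566 and 4975 (log2 0.15), with its other probe set at -0.22. Among the 4 core proteins of this particle, Dkc1 and Gar1 lay outside the probe set SD and Nhp2 and Nop10 inside it, a contrast that has no test here.

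In the C/D class, Nop58 gave 314 and 431 (log2 0.48). Fibrillarin (Fbl), the methyltransferase of that class, gave 1832 and 2033 (log2 0.17), and Nop56 gave 950 and 1021 (log2 0.13). The U3 particle's own protein Rrp9 gave 71.9 and 74.5 (log2 0.076). Of these 4, only Nop58 lay outside the probe set SD, and by little.

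Of 16 genes of pre-rRNA processing and subunit assembly, 14 (87.5%) were above 0, at a median of 0.35. The probe set SD was exceeded by 6 (37.5%). Of genes measured on both arrays, 53.1% were above 0 and 21.4% were higher by more than the SD. Ddx21, a nucleolar RNA helicase, gave 263 and 515 (log2 0.995, 1.99-fold), just under the 2-fold mark, with its other probe set at 0.26. Mybbp1a, a nucleolar Myb-binding protein, gave 421 and 799 (log2 0.95), and its other probe set was at 1.18. Nucleolin (Ncl), which binds the precursor, gave 1475 and 2656 (log2 0.87), and its 4 probe sets measured on both arrays were all above 0, from 0.33 to 0.98. Nucleolin thus had the most probe sets in agreement among the genes above 0.

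Early factors of the small subunit were above 0 as well. Nop14 gave 52.7 and 100.1 (log2 0.95), Utp20 gave 122 and 184 (log2 0.62), and Rrp12 gave 50.1 and 68.7 (log2 0.48), each from 1 probe set. Wdr43 gave 554 and 705 (log2 0.37), with both probe sets above 0.

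The PeBoW complex, made of Pes1, Bop1 and Wdr12 and needed for the large subunit, lay inside the probe set SD with the brightest probe sets. Pes1 gave 445 and 573 (log2 0.39), with its other probe set outside the SD at 0.81, Bop1 gave 191 and 231 (log2 0.30), and Wdr12 gave 489 and 518 (log2 0.11). A dimmer probe set of Bop1 was measured only on the wild type array (23.0 against 11.1). Other large subunit factors were also within the scatter: the GTPase nucleostemin (Gnl3) gave 720 and 886 (log2 0.32), Nop16 gave 263 and 313 (log2 0.28), Ppan gave 129 and 141 (log2 0.15), and the rRNA methyltransferase Nop2 gave 172 and 175 (log2 0.049).

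Nucleophosmin (Npm1), an abundant nucleolar chaperone, gave 6967 and 6561 (log2 -0.063), and its other probe set was at -0.041. Nip7 gave 858 and 760 (log2 -0.15), with its other probe set at 0.008. These were the only 2 genes of this step below 0, and both lay well inside the probe set SD. Differences this small had no settled side: Npm1 stood at 0.047 under quantile and 0.081 under loess scaling, and Nop2 at -0.029 and -0.079. Wdr12 was at -0.001 under loess scaling.

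Nucleotide supply was represented by Cad, the enzyme of the first steps of pyrimidine synthesis and a widely used Myc-responsive gene. Cad gave 140 and 319 (log2 1.21, 2.31-fold), the highest difference among the 40, and its second probe set gave 95.1 and 170 (log2 0.86). With that second probe set Cad was below 2-fold. Its remaining probe set lay under the floor on both arrays.

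Counted by probe set, the share above 0 and the median were smaller. Among the 90 probe sets, both arrays measured 73, of which 52 (71.2%) were above 0, against 52.3% of the 17738 named probe sets measured on both. The median over the 73 was 0.22. Of 23 genes with 2 or more such probe sets, 10 (43.5%) had all of them above 0 and 3 all below 0, namely Taf1d, Polr1c and Npm1. Over all genes with 2 or more, 31.2% had all above and 24.7% all below 0.

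Further genes of the same pathway, outside the 40, had a smaller median on the same side. Of 168 listed genes, 158 had a difference, 117 (74.1%) were above 0, and the median was 0.27. Of genes measured on both arrays, 53.1% were above 0, which is the share to set beside each list here. At least 2-fold, 4 (2.53%) were higher, the same share as the 2.53% of all genes, and none was lower, against 6.01% of all genes. The list of pre-60S factors had 36 of 43 (83.7%) above 0 at a median of 0.28. It held Dhx33, an RNA helicase (76.8 and 183, log2 1.28), and Rrp1b (143 and 340, log2 1.27). The second brightest probe set of Dhx33 was at 0.004. The list of small subunit factors had 33 of 44 above 0 at a median of 0.27. Its 1 gene past 2-fold, chosen once its value was known, was Heatr1 (264 and 537, log2 1.05), for which only 1 of 3 probe sets was above 0. Bms1 (1977 and 3118, log2 0.68) and Krr1 (1147 and 1297, log2 0.20) are on the same list.

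Further genes of nucleotide supply form a list of de novo purine and pyrimidine synthesis with the salvage kinase Uck2 and the nucleoside diphosphate kinases Nme1 and Nme2. Of its 18 genes with a difference, 13 (72.2%) were above 0, against 53.1% of genes measured on both arrays. Higher by more than the probe set SD were 9 of the 18, against 21.4% of genes measured on both arrays and 20.1% of all genes. The median was 0.49, but 0.26 with the mean of measured probe sets and 0.16 with the second brightest. The genes named by signal, Paics (4410 and 4432, log2 0.031) and Nme2 (5691 and 5171, log2 -0.11), were near 0. Others, named after their values were seen, were further up: Ctps, the CTP synthase, gave 391 and 686 (log2 0.83), Umps, which completes UMP, gave 741 and 1270 (log2 0.80, 3 of 3 probe sets), and Gart of the purine route gave 456 and 700 (log2 0.64, 4 of 4).

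Widely used Myc-responsive genes outside the nucleolus had 19 of 22 (86.4%) above 0 at a median of 0.27, where 53.1% of genes measured on both arrays were above 0. The amino acid transporter Slc7a5 gave 70.7 and 210 (log2 1.59, 3.02-fold), the highest difference of all the pathway genes, from 1 probe set. Further Myc network genes had 8 of 13 (61.5%) above 0, nearer to the 53.1%, at a median of 0.30. The median was 0.068 with the mean of measured probe sets and -0.056 with the second brightest. Ruvbl1 (592 and 928, log2 0.67) and Wdr5 (518 and 768, log2 0.59), both cofactors of Myc, were above 0, although the other probe set of Wdr5 was not. Mycn, chosen afterwards, gave 196 and 253 (log2 0.39).

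Of the other RNA polymerase I genes, 5 of 12 (41.7%) were above 0, at a median of -0.15, where 53.1% of genes measured on both arrays were above 0. The median was 0.056 without probe sets named _s_at, _x_at or _a_at. Polr1f (annotated as Twistnb) gave 1031 and 1075 (log2 0.084). Polr2f, a subunit that all 3 nuclear polymerases share, gave 728 and 578 (log2 -0.31). Polr2e (log2 -0.40) and Polr2h (log2 -0.34), shared in the same way, were also below 0. So was Tbp (log2 -0.28), which is not particular to this polymerase. These 3 were named after their values were seen. The 5 genes above 0 were Polr1f, Polr1g, Taf1a, Taf1c and Ttf1, none of them such a shared gene. Among other snoRNP assembly factors 3 of 6 were above 0, with Naf1 at 391 and 755 (log2 0.97) and Znhit6 at 456 and 586 (log2 0.39).

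**Figure D3:**
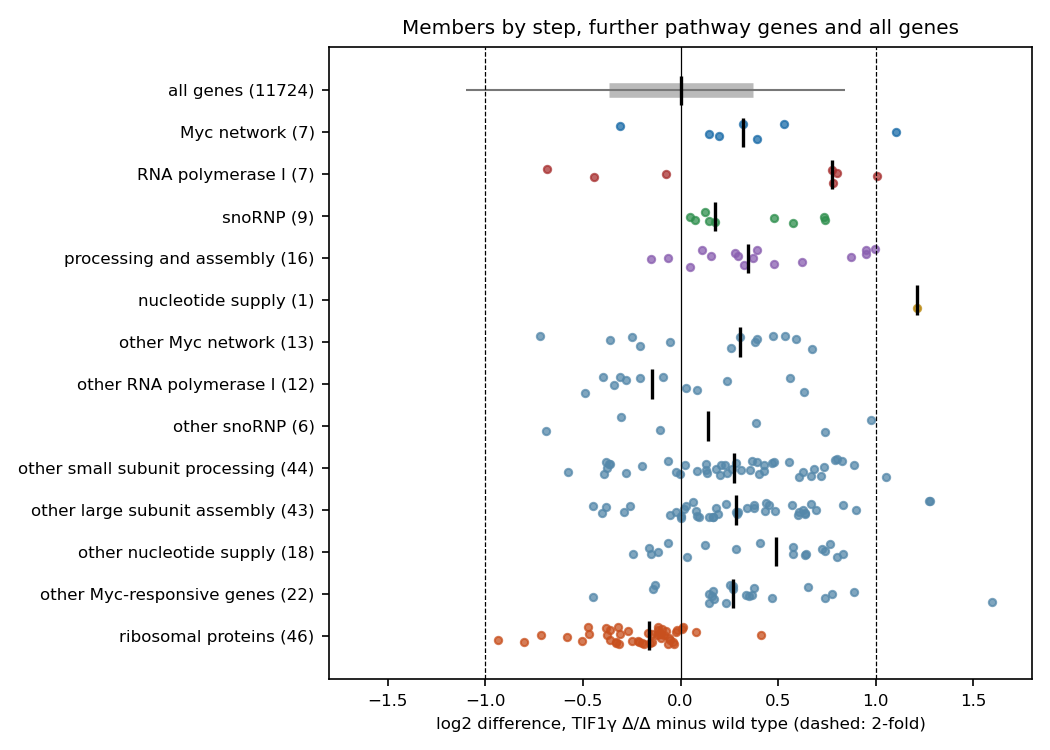
Log2 differences by step for the 40 genes, for further pathway genes (blue-grey) and for cytosolic ribosomal proteins (orange), with the number of genes in brackets and the median as a black bar. For all 11724 genes the thick bar spans the quartiles and the line the central 90%. The medians of the ribosomal proteins (-0.16) and of the other RNA polymerase I genes (-0.15) lie below 0 with the reported scaling. The latter list includes subunits shared with other polymerases.

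The proteins of the ribosome itself had a median on the other side of 0 from the genes that assemble it. Of 46 cytosolic ribosomal protein genes with a difference, a list chosen after the data were seen, 42 (91.3%) were below 0 and 4 above, at a median of -0.16, where 46.9% of genes measured on both arrays were below 0. None was 2-fold apart in either direction, against 2.62% higher and 4.65% lower among genes measured on both arrays. Lower by more than the probe set SD were 7 (15.2%), against 18.3%. Over all genes these shares were 2.53%, 6.01% and 20.8%. The count depended on the scaling: 27 were below 0 under quantile scaling, at a median of -0.090, and 28 under loess scaling, at a median of -0.057. The 16 processing and assembly genes, at a median of 0.35, ranged from -0.15 to 0.995, and the ribosomal proteins from -0.93 to 0.41, so single genes overlapped. The difference between these groups of genes has no test with 1 array per genotype.

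Genes that mark KLS cells and cycling cells had medians above 0 as the 40 genes did. The 9 KLS and stem cell genes had a median of 0.23 with 7 (77.8%) above 0, the exceptions being Procr and Hlf. The 17 genes of cycling cells had a median of 0.23 with 12 (70.6%) above 0. By more than the probe set SD, 7 (41.2%) were higher, against 21.4% of genes measured on both arrays. Lower by more than the SD were 2 (11.8%, against 18.3%), Mki67 (log2 -0.47) and Cdk1 (log2 -0.56). At least 2-fold, 3 (17.6%) were higher, against 2.62%, and none was lower. These 3, named after their values were seen, were Bub1b (log2 1.32), Top2a (log2 1.07, 1 of 2 probe sets above 0) and Tpx2 (log2 1.06). Of all genes measured on both arrays, 53.1% were above 0. Measured from the KLS median instead of from all probe sets, the median of the 40 was 0.12, 24 of 40 were above 0, and none was 2-fold higher. This centring lowers every gene alike by 0.23. The share of all genes above 0 was not counted with it, so the 53.1% is no background for the 24 of 40. Neutrophil and macrophage markers lay at a median of -4.89 and erythroid markers at -1.77, with signals under the floor set to it. How far the lower share of mature cell signal moves the 40 genes was not tested.

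**Figure D4:**
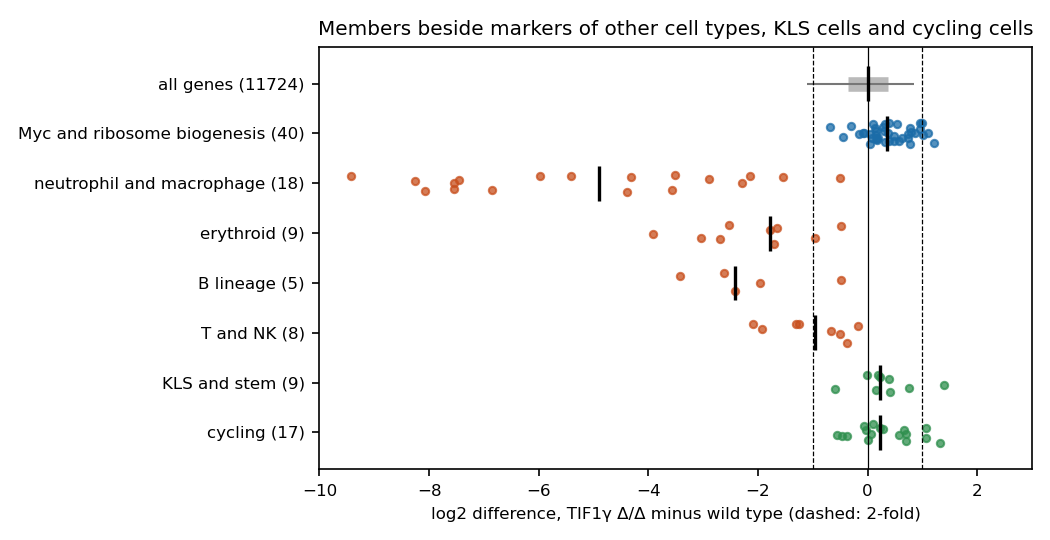
Log2 differences of the 40 genes (blue) beside markers of mature cells (orange) and of KLS and cycling cells (green), with the number of genes in brackets and medians as black bars. For all genes the thick bar spans the quartiles and the line the central 90%; the neutrophil and macrophage markers lie between -9.43 and -0.49 and the 40 genes between -0.69 and 1.21.

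Over 10 alternatives of scaling, floor and probe set rule, the median of the 40 genes stayed between 0.27 and 0.39. Without probe sets that can share transcripts (names ending in _s_at, _x_at or _a_at), 27 of 35 genes were above 0, and with the second brightest probe set 29 of 40. The count of genes at least 2-fold higher ran from 1 to 4. Shares of all genes under these alternatives were not counted.

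**Figure D5:**
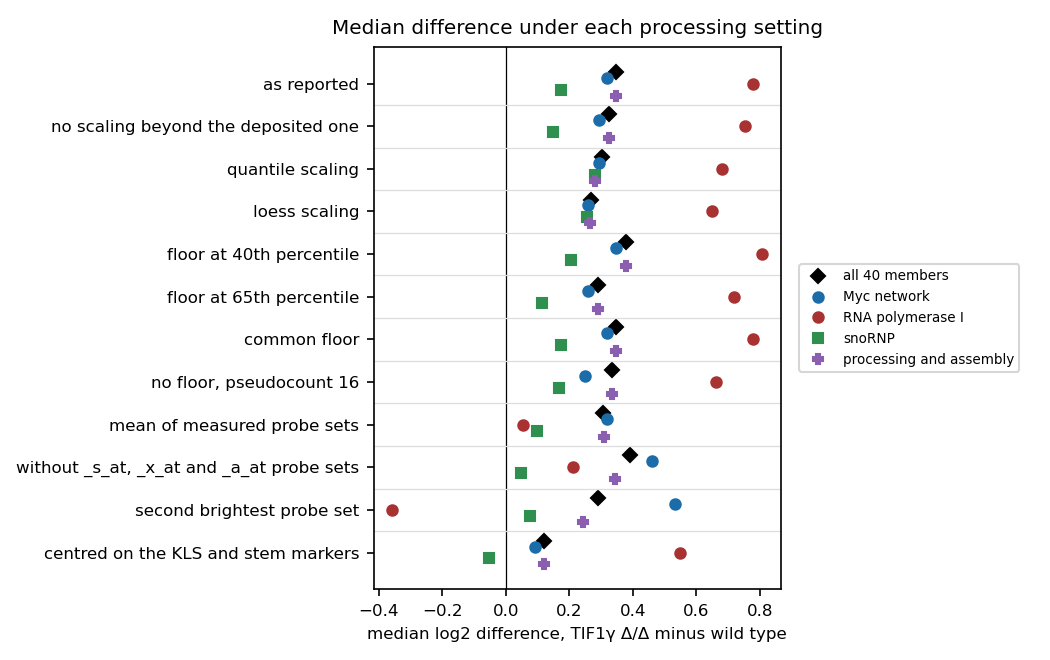
Median log2 difference of all 40 genes (black diamonds) and of 4 steps under the reported processing and each alternative; Cad is left out as a single gene. The median of all 40 lies between 0.27 and 0.39 except when centred on the KLS and stem cell markers (0.12), and the RNA polymerase I median moves from 0.81 to -0.36.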

How the data were processed

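The authors deposited probe set intensities (MAS5 signal, linear), per the submitters' processing notes, which do not state the version, filters or detection calls. Trimming 2% at each end left a mean intensity of 100.0 on both arrays, so array-wise scaling had been done before deposit. Control probe sets were removed here (64 of 45101), and 34945 probe sets with a single annotated gene were kept. Symbols were brought up to date through Entrez IDs with RefSeq's GRCm38.p6 gene table, and 932 probe sets with several genes named none. The log2 difference, centring, floor and choice of probe set are as given in the report. Where 1 array lay under its floor, the floor took the place of the signal. No test across genes was possible with 1 array per genotype, so differences of at least 2-fold were counted by size.

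The 40 genes and the lists were chosen with earlier results of these data known, and support nothing by themselves. The text gives all 40 genes, and from each pathway list the genes at least 2-fold apart whose probe sets agree, or its 2 brightest. Genes outside this rule are marked as named afterwards. Polr1f, Polr1g and Polr1h were found under the older symbols Twistnb, Cd3eap and Znrd1.

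Each result was recomputed with other scaling (none beyond the deposited one, quantile, loess), other floors (40th and 65th percentile, common to both arrays, or none with a pseudocount of 16), other probe set rules, and thresholds of 1.5-fold and 3-fold. Centring on the KLS markers, the ribosomal protein list and the count above 0 were added after the data were seen. The procedure was tested on simulated data. The planted differences were larger than that of any of the 40 genes, and probe sets scattered less than here. That test therefore does not cover differences of the size reported. Python 3.11.15 with numpy 2.4.6, pandas 2.3.3, statsmodels 0.14.6 and matplotlib 3.10.9 was used.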

Additional observations from a re-analysis of the deposited data

How the results depend on the processing

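No paired analysis was possible because each genotype had 1 array, and for the same reason no array could be left out. The number of arrays limits every value; the cause of each change below was not tested unless the setting's construction shows it. Of 468 gene values recomputed, 453 moved by less than the probe set SD of 0.45, 15 moved by more, and none of those at least 2-fold apart turned its direction. Many of the 468 values could not have moved by 0.45. Centring on the KLS markers subtracts 0.23 from every gene, and leaving out the further scaling shifts all genes alike by less. The common floor changed none of these gene values. Other probe set rules cannot move a gene with a single probe set. The count of 453 is therefore no measure of how stable the values were.

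The number of the 40 genes at least 2-fold higher was 3 as reported, 1 with the floor at the 65th percentile, 1 with a pseudocount of 16, 13 at 1.5-fold, 0 at 3-fold and 0 when centred on the KLS and stem cell markers. The number lower became 1 at 1.5-fold. By fold, all genes were counted only at 2-fold with the reported processing, where 2.53% were higher and 6.01% lower. Counts at other thresholds or settings, here and for the pathway genes, therefore have no share of all genes beside them. Among pathway genes, 4 were higher as reported, 1 with the mean of measured probe sets, 7 without probe sets named _s_at, _x_at or _a_at, 7 with the second brightest probe set, 39 at 1.5-fold and 1 at 3-fold; 1 was lower with the second brightest probe set and 2 at 1.5-fold.

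Medians moved by over 0.2 only with the probe set rule or the KLS centring. Centred on the KLS markers, which subtracts 0.23 throughout, they were 0.12 for the 40 genes, 0.091 for the Myc network, 0.55 for RNA polymerase I, -0.053 for snoRNPs, 0.12 for processing and assembly, 0.98 for Cad, 0.040 for the pathway genes and -0.087 for other snoRNP factors. With the second brightest probe set the Myc network was at 0.53, RNA polymerase I at -0.36, Cad at 0.86, other Myc network genes at -0.056, other nucleotide supply at 0.16 and other snoRNP factors at -0.21. Without _s_at, _x_at and _a_at probe sets RNA polymerase I was at 0.21, Cad at 0.86, other RNA polymerase I genes at 0.056 and other snoRNP factors at -0.11. With the mean of measured probe sets RNA polymerase I was at 0.055, other Myc network genes at 0.068 and other nucleotide supply at 0.26. Of the ribosomal proteins, 42 were below 0 as reported, 27 under quantile scaling and 18 without _s_at, _x_at and _a_at probe sets, where fewer genes have a probe set; their median stayed below 0 in all 10 alternatives.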

Other observations

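Of the 158 pathway genes outside the 40 that had a difference, 4 (2.53%) were lower by more than the probe set SD. This share was 18.3% of genes measured on both arrays and 20.8% of all genes. All 4 were named after their values were seen. Mxd3, a Max-binding repressor of the Mxd family, gave 170 and 101 (wild type first, log2 -0.72), and all 3 of its probe sets measured on both arrays were lower. This was the opposite side from Mxd1, Mxd4, Mxi1 and Mnt, which were all above 0. Znhit3, a snoRNP assembly factor, gave 257 and 157 (log2 -0.69), and Taf1b, a subunit of SL1 like Taf1d, gave 80.5 and 56.3 (log2 -0.49). The helicase Ddx49 gave 221 and 146 (log2 -0.57), with its 2 probe sets in disagreement.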
